A study of Mus musculus with 6 samples.

Results

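Motile cilium genes encode the beating hairs of ciliated airway cells and the factors that switch those cells to building them. They were followed here in mouse lung as 46 genes chosen by name: axonemal dyneins, tektins, radial spoke and central pair proteins, dynein assembly factors, regulators of multiciliation and a few further genes of ciliated cells. Of these, 44 had a row among the 24054 rows of the deposited table, and Dnah3 and Dnah12 were not analysed here. All 44 reached the minimum for testing, a mean value of at least 1 over the 6 libraries, along with 14159 genes in all. Mcidas and Spef2 had the fewest reads, 3 to 20 and 10 to 44 per library, and so the largest counting error.

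The lungs came from 6 female SCID mice, which lack mature B and T cells, and RNA-seq was run on whole lung, 1 library per mouse. Every mouse had received labelled extracellular vesicles (EVs, membrane particles shed by cells) positive for CD9, CD63 and CD81 by tail vein, then rat ELT3 cells intravenously 48 h later, and the lungs were assessed 72 h after the ELT3 cells. ELT3 cells, a line from a Tsc2-deficient rat uterine tumour, stand in for the cells of lymphangioleiomyomatosis, and the comparison asks how the genotype of the vesicle donors bears on a lung that then receives such cells. The vesicle donors were cultured neural progenitors, isolated at E15.5 from embryos, and were either wild type (WT EV, 3 mice) or without Tsc1 (Tsc1-null EV, 3 mice), a gene whose product restrains the growth kinase mTORC1. The genotype label of each sample, WT or MT, follows the vesicles it received. The age of the mice, and whether the vesicles of each genotype came from 1 culture or several, are not stated in the labels. No lung without EVs or without ELT3 cells was analysed here, so each difference is Tsc1-null EV relative to WT EV.

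A motile cilium is built on a ring of paired microtubules. Outer and inner dynein arms slide the pairs against each other, nexin links and radial spokes turn that sliding into a bend, and a central pair sets the direction of the stroke. Dynein arms are assembled in the cytoplasm by dedicated factors before they enter the cilium. In the airway the programme runs through regulators such as Mcidas, Foxj1 and the RFX factors, and serves to move mucus out of the lung.

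RFX factors bind X-box elements in the promoters of many cilium genes, and the promoters of the members were read for this reason. RefSeq promoter windows (build GRCm38.p6, the same assembly as mm10, 250 bases before to 50 after each annotated start) were found for 38 members. Foxj1, Tppp3, Rsph1, Rsph4a and Armc4 were not matched. Spag6 was left out because the table lists BC061194 in a row of its own, and the name Spag6 has also been used for the gene now called Spag6l. The RFX core site, searched as GTTGCC on both strands, was present in 22 of the 38 members (57.9%) and in 3821 of 27025 genes with a window (14.1%), and in 15.2% of the tested genes that had a window. The longer X-box, searched as GTNNCC followed by 0 to 3 bases and GGNNAC, was present in 8 members (21.1%). It was present in 4.38% of all genes and 5.75% of tested genes with a window. The X-box overlaps the core site where its first arm reads GTTGCC. The forkhead site TGTTTAC, of the kind FOXJ1 binds, was present in 2 members, Ak7 and Mlf1 (5.26%). It was present in 4.05% of all genes and 3.19% of tested genes with a window. A match describes the letters in the window and does not show that a factor binds there.

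In 11 members the core site lay within the 100 bases before a start. The 6 sequences shown are those of the members with such a site whose expression did not overlap between the groups (below), each as the 100 bases before the start, with the core site in capitals on whichever strand it reads.
Tekt1, chr11:72361883-72361982, minus strand, at a start inside the gene: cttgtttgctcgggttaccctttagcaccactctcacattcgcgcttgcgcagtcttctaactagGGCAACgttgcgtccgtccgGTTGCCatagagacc
Tekt2, chr4:126325689-126325788, minus strand: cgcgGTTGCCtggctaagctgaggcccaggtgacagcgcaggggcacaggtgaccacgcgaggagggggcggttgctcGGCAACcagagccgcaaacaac
Dnaic2, chr11:114727319-114727418, plus strand: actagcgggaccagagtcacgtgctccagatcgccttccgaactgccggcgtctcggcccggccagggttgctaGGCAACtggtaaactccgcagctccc
Drc1, chr5:30281293-30281392, plus strand: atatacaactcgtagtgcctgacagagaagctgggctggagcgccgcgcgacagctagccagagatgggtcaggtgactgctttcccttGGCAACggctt
Cdhr3, chr12:33092876-33092975, minus strand: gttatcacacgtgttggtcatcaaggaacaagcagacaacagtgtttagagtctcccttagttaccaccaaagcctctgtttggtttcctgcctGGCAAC
Pifo, chr3:106001498-106001597, minus strand, at a start inside the gene: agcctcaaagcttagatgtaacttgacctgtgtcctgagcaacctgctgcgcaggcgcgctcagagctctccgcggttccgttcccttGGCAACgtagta
Tekt1 and Tekt2 each carry 2 core sites in this stretch, and the others carry 1. Median log2 folds between the groups, defined below, were 0.70 for the 22 members with a core site and 0.68 for the 16 without.

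**Figure D1:**
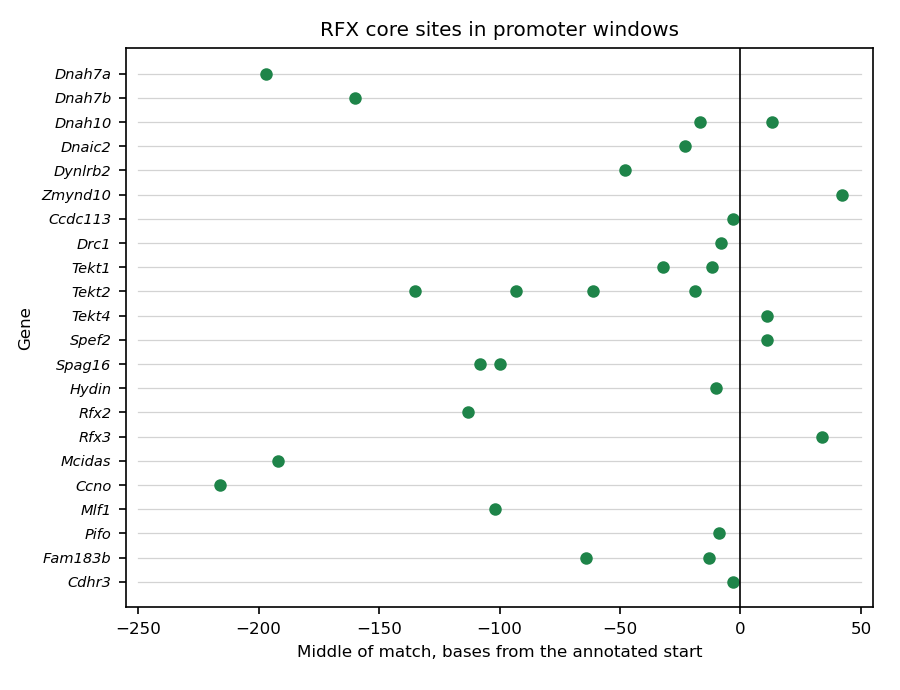
Position of each RFX core site (GTTGCC, either strand) in the promoter windows of the 22 members that hold one, as the distance in bases of the middle of the match from the annotated start (0, vertical line). Each grey line is a window from 250 bases before to 50 after the start, points are matches, and Tekt2 has overlapping windows from neighbouring starts, so its sites appear more than once.

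All 44 members were annotated as protein-coding genes in GENCODE M21 (GRCm38). Values are the deposited TMM-normalized reads per gene, scaled to library size and not divided by gene length, so levels of different genes are compared only per kilobase of annotated exon. On that scale, averaged over the 6 lungs, the highest members were Sec14l3, a lipid transfer protein of ciliated airway cells, at 873 per kb, Tppp3, a tubulin-binding protein, at 317, Dynlrb2, a dynein light chain, at 163, Fam183b at 116, and Foxj1, the master transcription factor of motile ciliogenesis, at 79.3. The lowest were Spef2 at 0.375, Mcidas at 0.423 and Dnah7a at 0.648. Both markers set for ciliated cells, Foxj1 and Tppp3, were detected in every lung, on at least 649 and 3188 reads.

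The libraries held 5101413 to 9358820 reads assigned to genes. A pair of libraries was unlike the others: WT EV replicate 2, with a median correlation across genes of 0.963 to the rest, and Tsc1-null EV replicate 1, with 0.942, against 0.980 to 0.982. The nuclear RNA Malat1 was at 15673 and 30060 in these libraries and at 1609 to 2819 in the other 4, and Rn45s, which counts pre-ribosomal RNA, was at 10881 and 13776, with 3293 to 6120 elsewhere. In this pair the motile cilium genes lay in opposite directions, low in the WT EV library and high in the Tsc1-null EV library. Each main result is therefore also given without them, an alternative chosen after seeing the data, and the part of these libraries in each difference was not tested.

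Nearly all motile cilium genes had higher mean levels in Tsc1-null EV lungs, but no member passed the test. Of 44 members, 43 had a log2 fold above 0 (47.3% of all 14159 genes tested did), and the median log2 fold was 0.70, beside -0.02 over all genes tested. In 21 members all 3 Tsc1-null EV lungs lay above all 3 WT EV lungs, which was so for 6.86% of all genes, and in 0 members did they all lie below (6.22% of all genes). A log2 fold here is the mean of log2(value + 1) in Tsc1-null EV lungs less that in WT EV lungs, so it understates changes of low genes. Limma called 0 of 44 members at an adjusted p under 0.05, with 0% of all genes called, and the members' adjusted p ranged from 0.721 to 0.995. At an unadjusted p under 0.05 there were 22 members, each on the higher side, against 3.6% of all genes on that side and 6.57% in either direction. edgeR on whole reads recovered from the values called 0 of 43 members (25 unadjusted) and 0% of all genes. DESeq2 on the same reads called 1 of the 39 members to which it gave an adjusted p, Ak7 (log2 fold 1.51, DESeq2 adjusted p = 0.0498), where 0.116% of all genes were called and 0.0677% were called higher. Limma with a weight per library called 12 of 44 members, all higher, beside 7.42% of all genes and 4.12% called higher. That fit counted Tsc1-null EV replicate 1 at 0.213 and WT EV replicate 2 at 0.393. It counted Tsc1-null EV replicate 2 at 3.95 and WT EV replicate 3 at 4.19. The remaining lungs, Tsc1-null EV replicate 3 at 0.776 and WT EV replicate 1 at 0.933, lay between. Its calls therefore rest mostly on a single lung in each group. In that fit the median was 0.34 and 40 members were above 0. These 12 were Ak7, Armc4, Ccdc40, Ccno, Cdhr3, Dnah6, Dnah7b, Dnah9, Dnah11, Drc1, Spef2 and Zmynd10. Limma without both libraries called 0 members, with 0.177% of all genes called and 0.0848% called higher.

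The list level, the mean over members of log2(value + 1) less the WT EV mean, was 0.12, -0.21 and 0.09 in WT EV replicates 1 to 3 and 1.29, 0.44 and 0.26 in Tsc1-null EV replicates 1 to 3. The groups did not overlap, but Tsc1-null EV replicate 1 lay far above its companions. That library was the highest of the 6 for 42 of 44 members (not for Dnah2 and Mcidas), which held for 25.4% of all genes, and WT EV replicate 2 was the lowest for 35, which held for 23.3%. Without Tsc1-null EV replicate 1, 35 of 44 members were above 0 (50.2% of all genes) and the median was 0.37. Without WT EV replicate 2, 43 were above 0 (47.9% of all genes) and the median was 0.55. Without both libraries, 37 members were above 0 (49.5% of all genes) and the median was 0.23. In those 4 lungs, 22 members had both Tsc1-null EV values above both WT EV values (20.8% of all genes) and 3 had both below (21.5% of all genes), namely Rsph1, Rfx3 and Tppp3. Because whole lung was measured, more ciliated cells and more RNA per ciliated cell cannot be told apart.

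**Figure D2:**
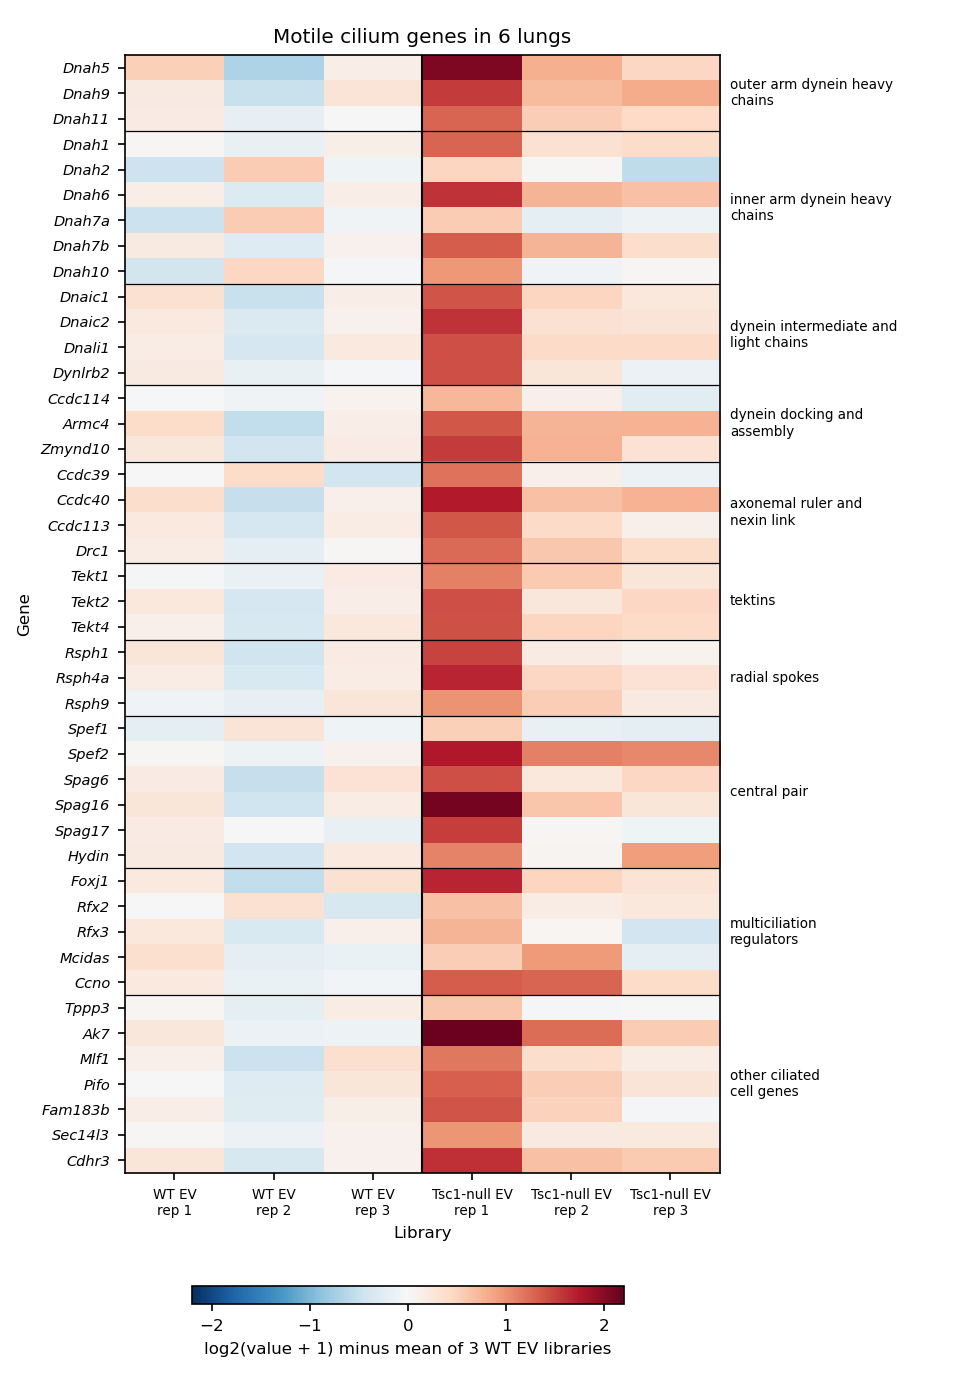
Heat map of 44 motile cilium genes (rows, grouped by role) in 6 lungs (columns), coloured by log2(value + 1) less the gene's mean over the 3 WT EV libraries. Tsc1-null EV replicate 1 is the darkest red column and the highest library for 42 of the 44 genes, while most rows are bluest in WT EV replicate 2 (the lowest library for 35).

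The outer arm dynein heavy chains, the motors that set beat frequency, had the highest median of the axonemal groups at 1.01, with all 3 above 0. That median was 0.40 without both libraries that stood apart. Dnah9 (chromosome 11, 65831282 to 66168551, minus strand) stood at 24.3, 14.7 and 25.8 in the WT EV lungs, in the order of replicates 1 to 3, and 62.5, 34.7 and 37.6 in the Tsc1-null EV lungs. Its groups did not overlap, with a log2 fold of 1.01 ± 0.28. Dnah11, the outer arm motor of the proximal cilium, stood at 10.9, 8.23 and 9.38 in WT EV and 24.3, 14.1 and 13.1 in Tsc1-null EV lungs, again without overlap and with a log2 fold of 0.75 ± 0.25. Dnah5, the most highly expressed of the 3 per kb (5.08), stood at 66.1, 28.1 and 50.2 in WT EV and 191, 78.8 and 62.3 in Tsc1-null EV lungs. Here Tsc1-null EV replicate 3 fell below WT EV replicate 1, so the groups overlapped. The log2 fold of Dnah5 was 1.09 ± 0.43 in all lungs and 0.28 without both libraries that stood apart.

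Of the inner arm heavy chains, which shape the bend, 6 were measured, 5 of them above 0, with a median of 0.48 (0.24 without both libraries that stood apart). In 3 the groups did not overlap, all higher (6.86% of all genes). Dnah6 stood at 64.0, 46.4 and 63.7 in WT EV and 176, 97.7 and 89.9 in Tsc1-null EV lungs, with no overlap and a log2 fold of 1.00 ± 0.26. Dnah7b stood at 11.6, 7.94 and 10.6 in WT EV and 26.5, 17.4 and 13.4 in Tsc1-null EV lungs (log2 fold 0.82 ± 0.26). Dnah1 stood at 10.2, 8.82 and 11.1 in WT EV and 25.7, 12.8 and 13.6 in Tsc1-null EV lungs (log2 fold 0.67 ± 0.27). Each of the 3 was lowest in WT EV replicate 2 and highest in Tsc1-null EV replicate 1. For the other 3 inner arm chains, WT EV replicate 2 was the highest of the WT EV lungs. Dnah2 stood at 8.17, 17.5 and 10.7 in WT EV and 16.4, 11.8 and 7.51 in Tsc1-null EV lungs, with a log2 fold of -0.02 ± 0.33, the only member below 0. Dnah7a stood at 5.24, 11.8 and 7.28 in WT EV and 11.8, 6.47 and 7.07 in Tsc1-null EV lungs (log2 fold 0.08 ± 0.32). Dnah10 stood at 10.1, 19.1 and 13.3 in WT EV and 27.5, 12.9 and 14.0 in Tsc1-null EV lungs (log2 fold 0.30 ± 0.32). In all 3 the groups overlapped. Dnah7a and Dnah7b are near copies: 38.6% of the 50-base words of Dnah7a (most with Dnah7b) and 30.0% of those of Dnah7b (most with Dnah7c) occur in transcripts of other genes, so reads may have been split between them and their separate levels are uncertain.

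High values in WT EV replicate 2 were also seen in Ccdc39, Spef1 and Rfx2. Altogether 6 of 44 members were higher in WT EV replicate 2 than in both other WT EV lungs, where 37.3% of all genes were, and 37 were lower than in both, where 42.9% of all genes were. Some of the 6 share sequence with other genes and some share little: 16.9% of Ccdc39 exon bases overlap Ttc14 and 13.4% of Spef1 exon bases overlap Gm14232, both on the opposite strand, but only 2.08% for Dnah2, 1.17% for Dnah10 and 0% for Rfx2. Whether counting used strand is not given in the sources used here, and the values of genes with such overlaps are uncertain to that extent. For Spag17 the overlap, with Wdr3, was 15.7%. The part of these overlaps in the pattern was not tested.

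Of the 4 smaller dynein chains, all were above 0 with a median of 0.72 (0.13 without both libraries that stood apart). The groups did not overlap for Dnaic2 and Dnali1, both higher (6.86% of all genes). Dnaic2, an outer arm intermediate chain, stood at 20.7, 14.1 and 19.0 in WT EV and 55.1, 22.6 and 21.8 in Tsc1-null EV lungs (log2 fold 0.73 ± 0.34), and the margin between the highest WT EV and the lowest Tsc1-null EV lung was narrow. Dnali1, an inner arm light chain, stood at 43.2, 29.5 and 44.8 in WT EV and 105, 51.8 and 51.9 in Tsc1-null EV lungs (log2 fold 0.75 ± 0.29). Dnaic1, the partner intermediate chain of Dnaic2, stood at 21.2, 11.6 and 18.5 in WT EV and 44.9, 23.4 and 19.8 in Tsc1-null EV lungs (log2 fold 0.70 ± 0.33), with overlap between Tsc1-null EV replicate 3 and WT EV replicate 1. Dynlrb2 stood at 80.0, 62.2 and 67.5 in WT EV and 188, 83.8 and 63.6 in Tsc1-null EV lungs: Tsc1-null EV replicate 1 was more than double any WT EV lung and replicate 3 was the second lowest of all 6. Its log2 fold was 0.52, and -0.0091 without both libraries that stood apart.

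Of the 3 docking and assembly factors, 2 were higher without overlap (6.86% of all genes). The median was 0.88, and 0.33 without both libraries that stood apart. Armc4, which anchors outer arms to the microtubule, stood at 7.68, 3.53 and 6.29 in WT EV and 16.0, 10.1 and 10.2 in Tsc1-null EV lungs (log2 fold 0.96 ± 0.29), on 24 to 94 reads per library. Zmynd10, a cytoplasmic factor of dynein arm assembly, stood at 17.6, 10.6 and 16.5 in WT EV and 44.1, 25.6 and 18.4 in Tsc1-null EV lungs (log2 fold 0.88 ± 0.32), and 10.1% of its exon bases overlap Gm34106 on the other strand. Ccdc114, which works beside Armc4 in the docking complex, stood at 8.66, 8.08 and 9.13 in WT EV and 15.0, 9.38 and 7.07 in Tsc1-null EV lungs (log2 fold 0.20 ± 0.26). Tsc1-null EV replicate 1 was the highest lung for Ccdc114 and replicate 3 the lowest.

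In the ruler and nexin link group, which spaces the arms and links along each doublet, the median was 0.69 (0.29 without both libraries that stood apart). Ccdc40 and Drc1 were higher without overlap (6.86% of all genes). Ccdc40 stood at 31.3, 16.3 and 25.8 in WT EV and 81.2, 37.4 and 40.9 in Tsc1-null EV lungs (log2 fold 1.05 ± 0.33). Drc1, a nexin link protein, stood at 22.8, 17.5 and 20.7 in WT EV and 49.5, 30.8 and 27.1 in Tsc1-null EV lungs (log2 fold 0.75 ± 0.24). Ccdc39, which forms the ruler together with Ccdc40, stood at 9.03, 12.2 and 6.42 in WT EV and 21.7, 9.70 and 8.06 in Tsc1-null EV lungs (log2 fold 0.39 ± 0.36). The partners differed in WT EV replicate 2, which was the lowest lung for Ccdc40 and the highest WT EV lung for Ccdc39. Ccdc113 stood at 27.2, 17.6 and 26.0 in WT EV and 61.3, 31.6 and 25.2 in Tsc1-null EV lungs (log2 fold 0.64 ± 0.32), with overlap.

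For the tektins, filament proteins inside the microtubule doublets, all 3 members were higher without overlap (6.86% of all genes). The median was 0.71, and 0.27 without both libraries that stood apart. Tekt1 stood at 23.7, 22.0 and 28.0 in WT EV and 54.1, 37.1 and 29.5 in Tsc1-null EV lungs (log2 fold 0.65 ± 0.23). Tekt2 stood at 12.0, 7.50 and 11.2 in WT EV and 28.5, 12.2 and 14.1 in Tsc1-null EV lungs (log2 fold 0.71 ± 0.32). Tekt4 stood at 21.1, 15.0 and 23.1 in WT EV and 52.7, 27.3 and 26.2 in Tsc1-null EV lungs (log2 fold 0.76 ± 0.29). In Tekt1 and Tekt2 the nearest lungs of the groups were almost level, and of Tekt2 20.8% of exon bases overlap Gm12945 on the other strand. Without both libraries that stood apart, the log2 folds were 0.35 for Tekt1, 0.17 for Tekt2 and 0.27 for Tekt4.

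The 3 radial spoke head proteins had a median of 0.58 (0.22 without both libraries that stood apart), and 1 of them, Rsph4a, was higher without overlap (6.86% of all genes). Rsph4a stood at 26.7, 18.7 and 26.9 in WT EV and 78.2, 32.9 and 29.9 in Tsc1-null EV lungs (log2 fold 0.82 ± 0.34). Rsph9 stood at 25.7, 24.0 and 32.9 in WT EV and 55.1, 40.3 and 31.5 in Tsc1-null EV lungs (log2 fold 0.58 ± 0.23). Rsph1, the highest of the 3 per kb (57.9), stood at 70.9, 43.2 and 66.9 in WT EV and 166, 66.7 and 62.3 in Tsc1-null EV lungs. Its log2 fold was 0.58 ± 0.37 in all lungs and -0.093 without both libraries that stood apart.

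Central pair genes had a median of 0.70 (0.16 without both libraries that stood apart), and 1 of 6 was higher without overlap (6.86% of all genes). This was Spef2 (chromosome 15, 9578193 to 9748868, minus strand), a central pair projection protein, at 1.71, 1.47 and 1.85 in WT EV and 8.02, 4.74 and 4.53 in Tsc1-null EV lungs on 10 to 44 reads per library. Every Tsc1-null EV lung was more than double the highest WT EV lung. The log2 fold of Spef2 was 1.30 ± 0.26, with the smallest unadjusted p of all members in limma (0.000901, adjusted p = 0.721), and it was 1.02 without both libraries that stood apart. Hydin, which when lost stiffens the cilium, stood at 20.2, 12.8 and 20.4 in WT EV and 38.5, 18.1 and 33.7 in Tsc1-null EV lungs (log2 fold 0.69 ± 0.30), with Tsc1-null EV replicate 2 below 2 of the WT EV lungs. Spag16 stood at 20.0, 11.9 and 18.6 in WT EV and 74.2, 25.8 and 20.0 in Tsc1-null EV lungs (log2 fold 1.00 ± 0.44), with Tsc1-null EV replicate 3 level with WT EV replicate 1. Spag6 and Spag17 had log2 folds of 0.70 and 0.49. Spef1, a microtubule-bundling protein and the highest of the group per kb (14.7), stood at 33.9, 47.6 and 36.5 in WT EV and 56.3, 34.6 and 33.7 in Tsc1-null EV lungs. Its log2 fold of 0.05 ± 0.23 was smaller than its SE.

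Of 5 regulators of multiciliation, 1 was higher without overlap between the groups (6.86% of all genes). The median was 0.43, and 0.27 without both libraries that stood apart, and each time it was the log2 fold of Mcidas itself. Mcidas reached the minimum for testing only through the Tsc1-null EV lungs (mean 1.33, against 0.677 in WT EV lungs). This median therefore rests on a gene with few reads. Ccno, a cyclin needed for the mass production of centrioles, stood at 4.27, 3.09 and 3.33 in WT EV and 10.4, 10.0 and 4.97 in Tsc1-null EV lungs (log2 fold 1.00 ± 0.29), on 21 to 93 reads per library, and its log2 fold was 0.76 without both libraries that stood apart. Mcidas, a coactivator of the programme, lies next to Ccno on chromosome 13 (Mcidas 112993845 to 113000394, Ccno 112987802 to 112990777, both plus strand). It stood at 1.10, 0.441 and 0.494 in WT EV and 1.40, 2.16 and 0.442 in Tsc1-null EV lungs, near the limit of detection, with the highest value in Tsc1-null EV replicate 2, and the groups overlapped. Foxj1 (chromosome 11, 116330704 to 116335399, minus strand) stood at 162, 95.4 and 177 in WT EV and 447, 194 and 173 in Tsc1-null EV lungs. Tsc1-null EV replicate 3 lay below WT EV replicate 3, so the groups overlapped (log2 fold 0.81 ± 0.37), and the log2 fold was 0.11 without both libraries that stood apart. Rfx2 and Rfx3, RFX factors of ciliated cells, differed in pattern. Rfx2 stood at 16.7, 21.3 and 12.8 in WT EV and 26.7, 18.7 and 19.8 in Tsc1-null EV lungs, with a log2 fold of 0.35 ± 0.23, and 0.37 without both libraries. Rfx3 stood at 15.2, 9.99 and 14.1 in WT EV and 22.5, 13.4 and 9.39 in Tsc1-null EV lungs, with a log2 fold of 0.13 ± 0.31, and -0.36 without them.

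The 7 further ciliated cell genes had a median of 0.62, and 0.14 without both libraries that stood apart. They included Ak7, whose log2 fold was close to that of Spef2 and, with it, the largest of the 44. Ak7, an adenylate kinase of the axoneme, stood at 24.9, 19.0 and 19.2 in WT EV and 97.0, 50.2 and 31.0 in Tsc1-null EV lungs, with a log2 fold of 1.31 ± 0.36, and every Tsc1-null EV lung was above the highest WT EV lung. Without both libraries that stood apart its log2 fold was 0.82. Cdhr3, a cadherin of ciliated cells known as a rhinovirus C receptor, stood at 42.0, 27.2 and 37.1 in WT EV and 108, 55.2 and 52.7 in Tsc1-null EV lungs (log2 fold 0.94 ± 0.29). Pifo, a protein of the cilium base, stood at 16.2, 12.9 and 19.6 in WT EV and 41.5, 23.9 and 19.7 in Tsc1-null EV lungs (log2 fold 0.72 ± 0.28), with Tsc1-null EV replicate 3 all but equal to WT EV replicate 3. Sec14l3 stood at 2040, 1848 and 2149 in WT EV and 3928, 2298 and 2328 in Tsc1-null EV lungs (log2 fold 0.46 ± 0.27). The groups of Sec14l3 did not overlap, but replicates 2 and 3 of Tsc1-null EV were nearly equal and only slightly above the highest WT EV lung. Tppp3 stood at 558, 469 and 604 in WT EV and 815, 533 and 535 in Tsc1-null EV lungs, and Tsc1-null EV replicates 2 and 3 lay within the range of the WT EV lungs (log2 fold 0.18 ± 0.21). Mlf1 and Fam183b overlapped, with log2 folds of 0.57 and 0.62.

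**Figure D3:**
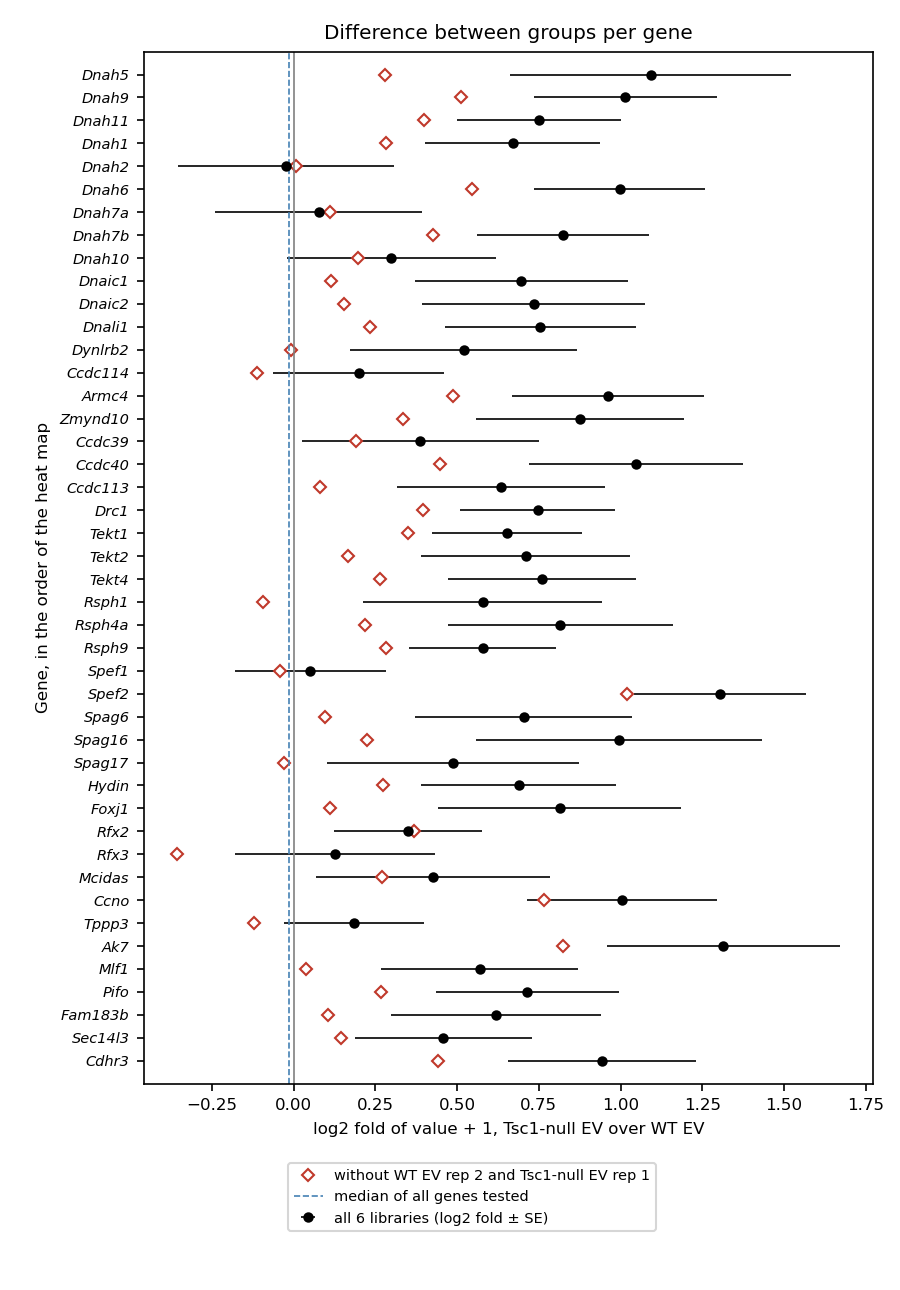
Log2 fold between the groups (x axis, positive where Tsc1-null EV lungs are higher) for each of the 44 members (y axis). Black points with bars are the fold ± SE from all 6 libraries, open diamonds the fold without the pair of libraries named above, and the dashed line the median of all genes tested (-0.02). Diamonds lie left of the points for most members, and Spef2, Ak7 and Ccno have the largest folds in the 4 remaining lungs (1.02, 0.82 and 0.76).

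Ciliated cell markers that were not on the member list gave a like picture. The 9 had log2 folds that were all positive (median 0.72), and 6 of 9 did not overlap (6.86% of all genes), though 0 passed. Tmem212 stood at 37.9, 28.8 and 45.5 in WT EV and 113, 59.1 and 50.2 in Tsc1-null EV lungs. Ccdc153 stood at 56.1, 45.1 and 55.8 in WT EV and 153, 63.5 and 57.1 in Tsc1-null EV lungs. Ccdc67, whose product Deup1 builds the deuterosome on which centrioles multiply, stood at 1.34, 1.47 and 1.85 in WT EV and 6.01, 6.15 and 2.32 in Tsc1-null EV lungs. The median of the 9 fell to 0.38 when Tsc1-null EV replicate 1 was left out and to 0.17 when both libraries were, with 8 of 9 then above 0. The level of this list was 1.52, 0.53 and 0.28 in the Tsc1-null EV lungs and -0.18 to 0.11 in the WT EV lungs.

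Further genes of the cilium pathway were mostly on the same side, with a smaller median. They include 1700009P17Rik, Ccdc67 and Ccdc78, which are also among the 9 markers above, so these sets are not separate. Over all 9 lists of further cilium genes, 132 of 147 were tested, 110 were above 0 with a median of 0.38, and 0 passed. Of these, 37 were higher without overlap (6.86% of all genes) and 1 lower (6.22% of all genes). Leaving out Tsc1-null EV replicate 1 gave a median of 0.16 (92 above 0), and leaving out both libraries that stood apart gave 0.10 (87 above 0). Dynein assembly factors had 10 of 11 above 0 and a median of 0.50, among them Dnaaf2 at 12.6, 9.55 and 11.6 in WT EV and 24.9, 14.1 and 15.9 in Tsc1-null EV lungs. Microtubule inner proteins had 16 of 18 above 0 and a median of 0.56. Other docking, nexin link and ruler genes had 10 of 10 above 0 (median 0.54), and other radial spoke and central pair genes 12 of 13 (median 0.42), such as Ropn1l at 3.29, 1.76 and 4.32 in WT EV and 9.82, 6.36 and 4.97 in Tsc1-null EV lungs. In this last list 7 of 13 were above 0 without Tsc1-null EV replicate 1, with a median of 0.04. With both libraries left out, the medians of these lists, in the order given, were 0.15, 0.13, 0.03 and 0.10.

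The multiciliation programme had 9 of 13 above 0 and a median of 0.49. Without Tsc1-null EV replicate 1 that median was 0.10, and without both libraries that stood apart 0.04, with 7 above 0 in each case. E2f4, the factor through which Mcidas acts on DNA, had a log2 fold of -0.05. Foxn4, a transcription factor of multiciliated cells, stood at 0.854, 0.294 and 0.370 in WT EV and 3.41, 1.94 and 0.773 in Tsc1-null EV lungs, with overlap. It reached the minimum for testing only through the Tsc1-null EV lungs (mean 2.04, against 0.506 in WT EV lungs), and its values are near the limit of detection. Intraflagellar transport genes, which serve primary cilia of many cell types as well as motile cilia, had 25 of 26 above 0 and a median of 0.34, with 10 higher without overlap (6.86% of all genes). With Tsc1-null EV replicate 1 left out their median was 0.22, and with both libraries left out 0.14, with 21 above 0 in each case. Dync2h1, the motor of retrograde transport, stood at 17.3, 19.4 and 19.5 in WT EV and 37.7, 27.8 and 26.0 in Tsc1-null EV lungs. BBSome and transition zone genes had 15 of 18 above 0 and a median of 0.36, with Bbs1 at 12.8, 13.4 and 13.7 in WT EV and 23.3, 16.1 and 16.7 in Tsc1-null EV lungs. The median of that list was 0.10 with both libraries left out, with 11 above 0. Tubulins and their modifiers had 8 of 14 above 0 and a median of 0.10, and other dynein chains, including those of other tissues, 5 of 9 and a median of 0.09. With both libraries left out, the medians were 0.01 for the tubulin list and 0.02 for the other dynein chains. Tubb4b, a tubulin of motile cilia, stood at 473, 347 and 481 in WT EV and 649.5, 583 and 536 in Tsc1-null EV lungs, without overlap. The examples above are mostly those with the smallest unadjusted p of their lists. The gene with the highest mean value in each of the 9 lists had a log2 fold of -0.09 for Pih1d1, -0.05 for E2f4, 0.08 for Kif3a, 0.09 for Dynll1 and 0.71 for 1700009P17Rik, and of 0.28 to 0.43 for the other 4. Tsc1-null EV replicate 1 was the highest library for 22 of the 26 intraflagellar transport genes and for 5 of the 14 tubulin genes.

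Markers of other lung cells also differed among these libraries. Of 10 club cell markers, 10 were tested and 7 were above 0, and their summed value was 53567 to 77265 in WT EV and 70054 to 106714 in Tsc1-null EV lungs. Their median log2 fold was 0.25. It was 0.03 without Tsc1-null EV replicate 1 (5 above 0) and -0.28 without both libraries that stood apart (4 above 0). The club level was -1.24 in WT EV replicate 2 and -0.21 in Tsc1-null EV replicate 1, but the markers were not alike. In Tsc1-null EV replicate 1 the summed value was the highest of the 6 libraries (106714), but 91441 of it was Scgb1a1, so the sum mostly follows that gene. Of the 10 markers, 5 were highest in that library, namely Scgb1a1, Scgb3a2, Cyp2f2, Aldh1a1 and Lypd2. Bpifa1, at 1.40 in that library, and Reg3g, at 5.41, were at the low end there. In WT EV replicate 2, 7 of the 10 were lowest and so was the sum (53567, of which 48294 was Scgb1a1). The 5 mesothelial markers were all below 0, with sums of 364 to 988 in WT EV and 53.3 to 403.0 in Tsc1-null EV lungs. Their level was -3.74 in Tsc1-null EV replicate 1 and 0.84 in WT EV replicate 2, which held the sum of 988. Their median was -1.82, and -0.26 without both libraries that stood apart. The 6 endothelial markers were all below 0 as well, with sums of 2483 to 3247 and 1654 to 3056. Their level was -0.80 in Tsc1-null EV replicate 1, and their median was -0.33, and -0.20 without both libraries. The 6 alveolar type 2 markers were all above 0, with sums of 23759 to 31315 and 21166 to 42094. Their level was -0.04 in Tsc1-null EV replicate 1, and their median was 0.42, and 0.45 without both libraries. Of 5 basal cell markers Trp63 and Ngfr, and of 5 neural progenitor markers Pax6, Sox1, Hes5 and Fabp7, were under the minimum for testing. The 3 basal markers tested were all below 0, with a median of -0.62. Their sums were low, 3.53 to 15.7 in WT EV and 1.99 to 4.41 in Tsc1-null EV lungs. Nes, the neural progenitor marker tested, had a log2 fold of -0.25. The 5 alveolar type 1 markers had 1 above 0 and a median of -0.18, and the 4 neuroendocrine markers 3 above 0 and a median of 0.41. Without both libraries that stood apart, these medians were -0.18 and -0.14, with 1 above 0 in each list. The part of these shifts in the cilium result was not tested.

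**Figure D4:**
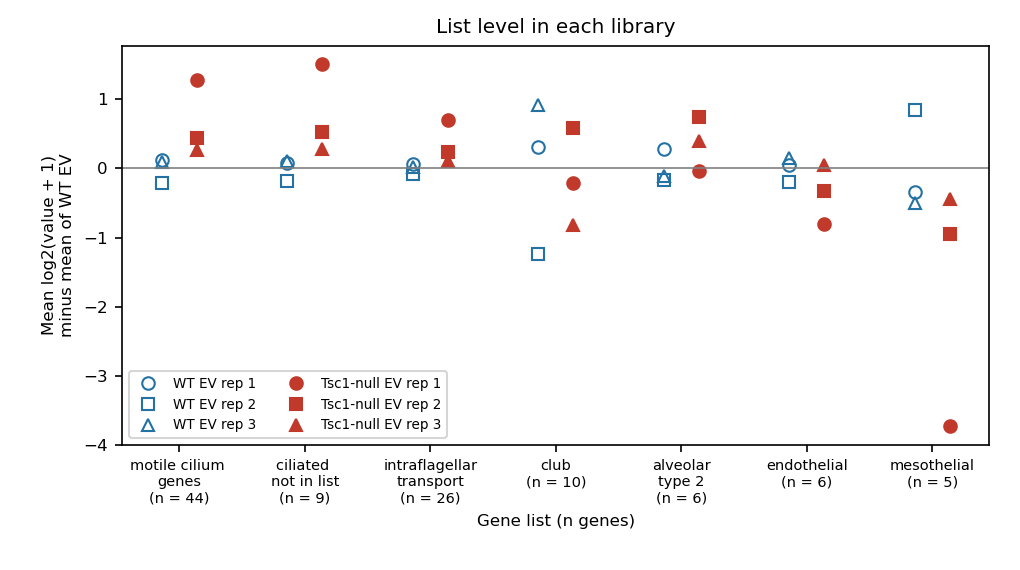
Level of 7 gene lists (x axis, with the number of genes tested) in each library, as the mean of log2(value + 1) less the WT EV mean (y axis). Open blue symbols are WT EV and filled red symbols Tsc1-null EV replicates. The motile cilium list and the separate ciliated markers are highest in Tsc1-null EV replicate 1 (1.29 and 1.52), where the mesothelial list is lowest (-3.74).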

How the data were processed

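Per the labels' protocols, whole-lung RNA from 6 mice was sequenced as paired-end reads. TMM-normalized signal values per gene were deposited by the authors in 1 table, and the submitters' processing notes name Bowtie2 2.1.0, RSEM 1.2.15, edgeR and mm10. Values in a library were whole multiples of its smallest positive value within 0.001 for 99.9958% to 100% of genes, so whole reads were recovered (5101413 to 9358820 per library). Genes with a mean of at least 1 were tested with limma 3.58.1 (R 4.3.3, intensity trend) on log2(value + 1), 3 against 3, two-sided, with Benjamini-Hochberg adjustment over 14159 genes. Alternatives were edgeR 4.0.16 and DESeq2 1.42.0 on recovered reads, library weights, pseudocounts of 0.5 and 0.1, other filters and normalizations, and leaving out libraries. The test was first tried on simulated data. Labels give separate mice, and replicates are numbered in accession order. Members, lists and motifs were chosen with earlier results of these data known. By rule, all 6 values are given for members whose groups do not overlap, for the highest and the smallest unadjusted p of each role and for Foxj1 and Tppp3. Further members' values were added after they had been seen. In each other list, genes could be named from the 3 with the smallest unadjusted p and the highest, and not all were. List symbols that the table lacked were matched through RefSeq synonyms. Exon lengths and overlaps came from GENCODE M21.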

Additional observations from a re-analysis of the deposited data

How the results depend on the processing

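With 3 lungs a group the call of single members depended on the model. Limma called 0 of the members (0% of all genes), library weights 12 (7.42% of all genes) and DESeq2 1 (0.116% of all genes). The weighted fit rested mostly on a single lung in each group. Other pseudocounts, filters, normalizations and edgeR called 0. Leaving out each library in turn gave 0 to 0 calls, 35 to 44 members above 0, medians of 0.37 to 0.90, 21 to 32 members higher without overlap and 0 to 0 lower. The 32 were without Tsc1-null EV replicate 3, where 13.2% of all genes were higher without overlap, and the 21 without Tsc1-null EV replicate 1, where 14.9% were. Without both Tsc1-null EV replicate 1 and WT EV replicate 2, chosen after seeing the data, the median was 0.23. In that setting 22 members were higher without overlap (20.8% of all genes) and 3 were lower (21.5% of all genes). Of the members, 33 kept their direction in every one of the 16 alternatives run on them and 11 did not. Of the 33, 31 were run in all 16, while Spef2 and Mcidas fell under the filter at a mean of 5. With library weights the log2 folds that turned were Dnah2 0.061, Dnah7a -0.073, Spef1 -0.061, Rfx3 -0.097 and Tppp3 -0.11. Without both libraries they were Dnah2 0.0062, Dynlrb2 -0.0091, Ccdc114 -0.11, Rsph1 -0.093, Spef1 -0.042, Spag17 -0.031, Rfx3 -0.36 and Tppp3 -0.12. Leaving out each library in turn, the ranges of these and the other turning members were Dnah2 -0.27 to 0.25, Dnah7a -0.17 to 0.35, Dnah10 -0.026 to 0.52, Dynlrb2 0.070 to 0.84, Ccdc114 -0.071 to 0.42, Ccdc39 -0.013 to 0.65, Rsph1 0.13 to 0.83, Spef1 -0.18 to 0.19, Spag17 -0.027 to 0.78, Rfx3 -0.19 to 0.40 and Tppp3 -0.018 to 0.29. The cause of these changes was not tested. No paired analysis was possible because the labels give the groups no shared replicate numbers.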
